A study of Rattus norvegicus with 144 samples.

Results

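The nuclear genes for subunits of the 5 oxidative phosphorylation complexes were examined in RNA sequencing libraries from Long Evans rats. The tissue was the anterior cingulate cortex, which lies along the midline of the frontal lobe. Members were the protein-coding genes whose symbols carry the subunit stems. These stems are Nduf with a, b, c, s or v and a digit for complex I, Sdha to Sdhd for complex II, Uqcr for complex III, Cox4 to Cox8 with a letter for complex IV and Atp5 for complex V. Among 45785 genes the rule found 89 members with counts high enough to be tested and 20 with lower counts. Of all of them, 47 were named for complex I, 4 for complex II, 11 for complex III, 21 for complex IV and 26 for complex V. By this rule Ndufa4 and its relative Ndufa4l2 were counted with complex I, although their products are now assigned to complex IV. Ndufab1 of complex I and Cyc1 of complex III are subunits whose symbols fall outside the rule, and they were read among the lists of other genes.

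The libraries formed 24 groups by sex, prenatal condition, adolescent condition and age, with 4 to 7 libraries in a group. Before birth the rats had been exposed to ethanol (PAE), to a pair-fed diet (PF) or to a free-choice liquid diet (FCL). During adolescence they were given alcohol (AAE) or water as the vehicle control (VEH). Tissue was collected at postnatal day 42, within a day of the last adolescent exposure, or at postnatal day 90 with no further challenge. This gave 34 adolescent female, 35 adult female, 39 adolescent male and 36 adult male libraries, and the controls too had a prenatal diet condition and a vehicle. The libraries were made from total RNA of bulk tissue with random primers and do not keep the strand. In bulk tissue a change in the share of a cell type and a change in RNA per cell cannot be told apart. Nothing in the labels says that libraries of a group came from separate animals or litters, and p-values therefore measure the spread between these libraries.

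Oxidative phosphorylation couples electron transfer along the inner mitochondrial membrane to the making of ATP. Complex I (NADH dehydrogenase) and complex II (succinate dehydrogenase) feed electrons to ubiquinone, complex III (the cytochrome bc1 complex) passes them to cytochrome c, complex IV (cytochrome c oxidase) passes them to oxygen, and complex V (ATP synthase) uses the proton gradient to make ATP. All complexes except complex II also contain subunits encoded in mitochondrial DNA, for which the table held 0 genes, so the values below concern only the nuclear share. In the brain most ATP is made in this way, and fast-spiking interneurons that express parvalbumin are known for a high demand on it.

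Total counts per library ran from 10.57 to 34.37 M with a median of 13.96 M, and the members took between 0.739% and 1.253% of a library. The labelled tissue was checked with 12 markers of excitatory neurons, whose summed level ran from 3997 to 9776 CPM, and 0 of the 12 were at 0 in any of the groups of sex and age. CPM are counts scaled to a common library total by the TMM method. The libraries that stood apart numbered 5. Of these, 1 adult female (FCL AAE) and 1 adolescent male (PF VEH) library carried olfactory mucosa genes at a high level. In 2 libraries Xist, which is expressed from the inactive X chromosome, went against the label. The library labelled adolescent female (PF AAE) had Xist at 0.993 CPM, where the others labelled female had at least 313 CPM, but its Y-linked genes were at 0.331 CPM as in females. The library labelled adolescent male (PAE VEH) had Xist at 379 CPM together with Y-linked genes at 27.1 CPM, where the others labelled male had at least 154.4 CPM of the latter. The fifth, an adult female PF VEH library, had the fewest genes detected and also the lowest summed level of all members, 6981 CPM. All 5 were kept, and results that rest on them are given with and without them. The adult female library with olfactory mucosa genes also had Y-linked genes at 46.3 CPM. An adult male PAE VEH library, not counted among the 5, had Xist at 95.9 CPM with Y-linked genes at 155.1 CPM.

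The 89 members that passed the filter on low counts were 40 of complex I, 4 of complex II, 8 of complex III, 17 of complex IV and 20 of complex V. The 20 members that were not tested had a mean of at most 1.60 counts per library (Ndufb11b), and most of them carry the names of near-identical gene copies. Of these 20, Ndufb2, Ndufb3l1, Ndufb4l1, Uqcrbl2 and Cox7cl1 had 0 counts in every library. Ndufb2 encodes an accessory subunit of complex I and lies on chromosome 4 at 69334307 to 69341394. Its span overlaps Braf on the other strand, which had a mean of 1628 counts per library, and the part of this overlap in the absent counts of Ndufb2 was not tested. A further 84 genes with the same stems were not protein-coding. Their summed count was 141.43 per library on average, or 0.102% of that of the members.

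FPKM, which divides counts by gene length and library size, was used to compare levels between genes. The catalytic beta subunit of ATP synthase, Atp5f1b, had the highest level of all members, with 647 ± 66.5 FPKM (SD over all libraries) and a range from 267 to 887. Cox4i1, the common form of a regulatory subunit of cytochrome c oxidase, followed with 584 ± 90.2 FPKM and a range from 236 to 911. Cox6a1 lay at 437 ± 89.8 FPKM and Atp5f1a, the alpha subunit of ATP synthase, at 417 ± 34.1 FPKM. The spreads of Cox4i1 and Atp5f1b overlapped, and so did those of Cox6a1 and Atp5f1a. In complex I the highest member was Ndufa4 (211 ± 39.9 FPKM) and the lowest tested was the gene copy Ndufb3l2 (0.665 FPKM). In complex II, Sdha, the flavoprotein that oxidises succinate, lay at 152.04 ± 10.6 FPKM and Sdhb, the iron-sulfur subunit, at 42.9 ± 4.76 FPKM, although both products are present once per complex. In complex III, Uqcr11 reached 186 ± 31.3 FPKM and Uqcrq 10.6 ± 1.997 FPKM. Cox7a1, a form known from muscle, was by FPKM the lowest tested member of complex IV (0.476 ± 0.166 FPKM). It was not the lowest by CPM, with a mean of 1.82 and a length of 3794 bases. Cox8b, with 319 bases, had 0.586 FPKM and 0.188 CPM. The span of Cox7a1 overlaps Capns1 on the other strand, which had a mean of 2819 counts per library. The part of this overlap in the level of Cox7a1 was not tested. In complex V the gene copy Atp5mgl4 was the lowest (0.498 FPKM).

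**Figure D1:**
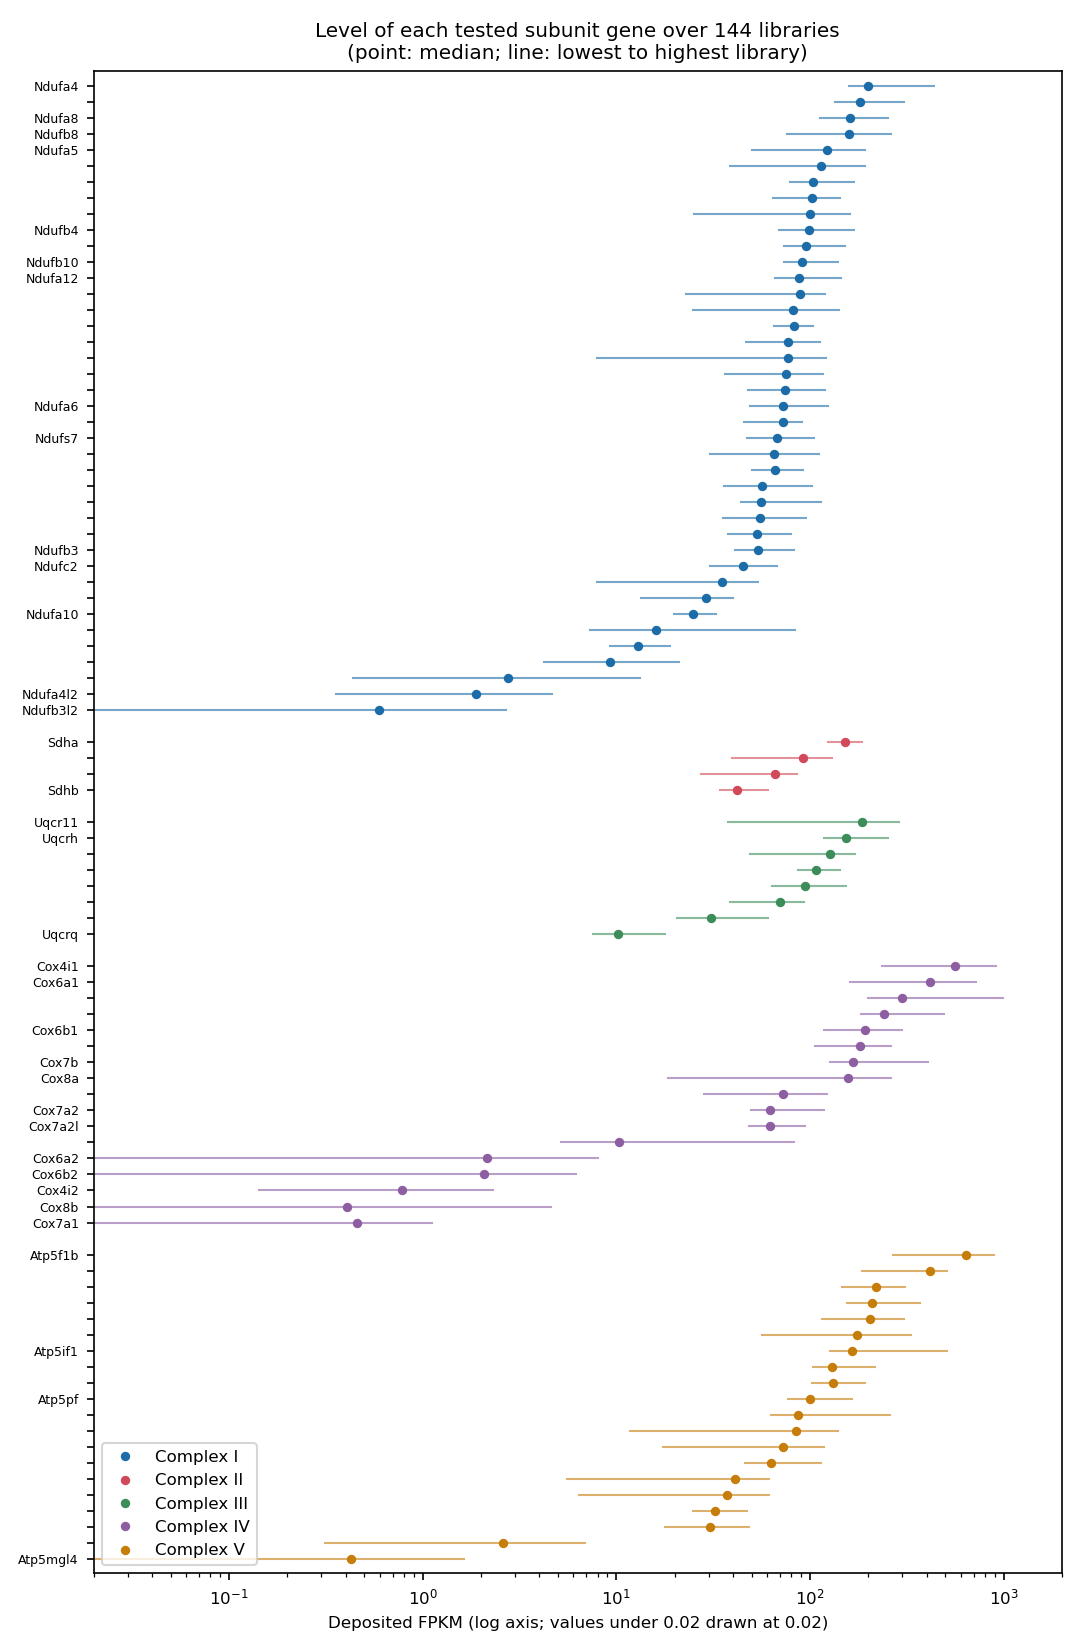
Deposited FPKM of the 89 tested members on a log axis, grouped by complex. Each point is the median and each line runs from the lowest to the highest of all libraries, with values under 0.02 drawn at 0.02, and names are given for the called members, the isoforms with their partners and the highest and lowest of each complex. Atp5f1b (267 to 887 FPKM) and Cox4i1 (236 to 911) stand at the top, and the tissue-restricted isoforms and gene copies at the bottom.

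Among the 78 members with a mean of at least 10 FPKM, 33 reached 100 FPKM. The mean level per member of at least 10 FPKM was 211 for complex IV and 162 for complex V, against 84.7 for complex I, 88.8 for complex II and 98.99 for complex III. The means of complex IV and complex V are carried by a few genes such as Cox4i1 and Atp5f1b. The median over all tested members was lowest for complex IV (74.8 FPKM), with 76.8 for complex I, 80.04 for complex II, 102.1 for complex III and 97.4 for complex V. FPKM levels in a single complex thus spanned a wide range although its subunits are present in fixed ratios. FPKM depends on the gene length used as divisor. Uqcrq, with 5387 bases, had 57.5 CPM and 10.6 FPKM, and Uqcr10, with 439 bases, had 42.5 CPM and 96.2 FPKM. The part of gene length in the range was not tested. Among the 78 members with at least 10 FPKM, the coefficient of variation of CPM over all libraries had a median of 16.3%. It was lowest for Ndufs1, the largest iron-sulfur subunit of complex I (6.87%), and highest for the gene copy Cox7a2l2 (58.8%). Some tested members under 10 FPKM exceeded this, such as Cox8b (123%). Members tested were short, with a median length of 779 bases in the table against 3798 bases over all genes tested, and 34 of the 89 overlap the span of another gene.

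The RefSeq promoter table of assembly GRCr8, with the 250 bases before to 50 bases after each start it gives, held 93 members, of which 78 were tested genes. Core letters of 3 motifs known from such genes were searched on both strands: GCGCATGCG for NRF1, CCGGAAG for the ETS family to which GABPA belongs, and AAGATGGCG for YY1. The NRF1 letters nearly match their own reverse complement, so hits on both strands can overlap. The letters of NRF1 were in 7.69% of the tested members' promoters (6 of 78) against 2.47% of those of all genes tested. Those of ETS were in 26.9% (21 of 78) against 13.4%, and those of YY1 in 12.8% (10 of 78) against 2.78%. Of the 10 YY1 hits, 7 were in complex I, 1 in complex III and 2 in complex V. All 10 lay on the strand of the gene, and in 8 they followed the start, where the ATG inside the letters can be a start codon. With only the bases before the start, 1 of 78 (1.28%) had the YY1 letters against 1.01% of all genes tested. That 1 was Atp5pf, whose site still lies inside the span of the gene. The site of Uqcrc1 begins 1 base before the start and runs across it. The NRF1 letters were in Ndufa11, Uqcrc1, Atp5mc2, Atp5me, Atp5mg and Atp5po. A match is a description of the letters and not a bound site.

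The sites with the YY1 letters are shown because the same 9 letters recur near the promoter starts used for genes of different subunits. For Ndufs7 and Atp5pf that start lies inside the gene span (10103226 to 10110862 and 37368045 to 37375721, both minus strand). Of the 10 sites 9 are printed, 6 of them in complex I, and that of Ndufa2 is not. Each is given 5′ to 3′ on the strand of its gene, with the letters in capitals and the position in GRCr8. Ndufa6, Ndufb8 and Atp5pf return below among the genes that changed with age in males.
Ndufa6, chr7:115750286-115750310, minus strand: tccttagcAAGATGGCGgccgcggc
Ndufa9, chr4:161374144-161374168, minus strand: tgtgggagAAGATGGCGgccgccgt
Ndufb8, chr1:253362899-253362923, minus strand: agaaggtgAAGATGGCGgcgtcccg
Ndufs4, chr2:47794894-47794918, minus strand: cccacaggAAGATGGCGgcggtctc
Ndufs6, chr1:31797415-31797439, plus strand: tcgtcggcAAGATGGCGgcggcgct
Ndufs7, chr7:10110478-10110502, minus strand: ccgaggccAAGATGGCGgcgctggc
Uqcrc1, chr8:118468214-118468238, plus strand: gaagttagAAGATGGCGgcgtccgc
Atp5mf, chr12:14535463-14535484, plus strand: aggacttcAAGATGGCGtctat
Atp5pf, chr11:37375196-37375220, minus strand: gtgtaggaAAGATGGCGgagtctta
The next 4 runs are the 250 bases before the start of Ndufa12, the member with the smallest p for age in males, of Ndufa6, with the ETS letters in capitals, and of Uqcrc1 and Atp5po, with the NRF1 letters (the reverse complement in Atp5po) in capitals. The window of Ndufa12 held none of the 3 motifs. That of Atp5po held the NRF1 letters 59 bases before the start and their overlapping reverse complement at 58 bases, and only the latter is in capitals.
Ndufa12, chr7:30658066-30658315, plus strand: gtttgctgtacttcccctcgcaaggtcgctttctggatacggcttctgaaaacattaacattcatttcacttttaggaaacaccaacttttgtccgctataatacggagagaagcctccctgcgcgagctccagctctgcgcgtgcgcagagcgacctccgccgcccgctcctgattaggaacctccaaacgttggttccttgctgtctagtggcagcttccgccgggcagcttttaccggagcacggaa
Ndufa6, chr7:115750318-115750567, minus strand: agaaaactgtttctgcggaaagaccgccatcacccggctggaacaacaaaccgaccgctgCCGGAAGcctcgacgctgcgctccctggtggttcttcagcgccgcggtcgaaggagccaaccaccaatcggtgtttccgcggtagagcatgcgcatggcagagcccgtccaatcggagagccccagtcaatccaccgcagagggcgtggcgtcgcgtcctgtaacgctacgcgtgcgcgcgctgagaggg
Uqcrc1, chr8:118467973-118468222, plus strand: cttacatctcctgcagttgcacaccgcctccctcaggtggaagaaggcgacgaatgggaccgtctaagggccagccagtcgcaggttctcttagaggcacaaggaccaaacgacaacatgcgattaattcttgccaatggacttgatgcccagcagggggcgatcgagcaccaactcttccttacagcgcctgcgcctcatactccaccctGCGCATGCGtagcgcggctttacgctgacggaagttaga
Atp5po, chr11:44657484-44657733, minus strand: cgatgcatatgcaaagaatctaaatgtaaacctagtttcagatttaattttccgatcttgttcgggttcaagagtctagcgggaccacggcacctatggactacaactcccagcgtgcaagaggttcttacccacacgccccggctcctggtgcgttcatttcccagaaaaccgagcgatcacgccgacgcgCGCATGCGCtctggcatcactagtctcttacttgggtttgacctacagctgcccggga

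Summed over all members, the level was 9507 ± 1115 CPM (SD over all libraries). It ran from 7958 to 12865 with a median of 9247 CPM in adolescent females, and from 6981 to 12203 with a median of 9113 in adult females. In adolescent males it ran from 8119 to 11326 with a median of 9082, and in adult males from 7992 to 13045 with a median of 9322. The 4 ranges overlapped almost fully. Complex IV varied most between libraries, with a coefficient of variation of 15.96% against 12.1% for complex I, 11.5% for complex III, 10.7% for complex V and 8.2% for complex II.

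**Figure D2:**
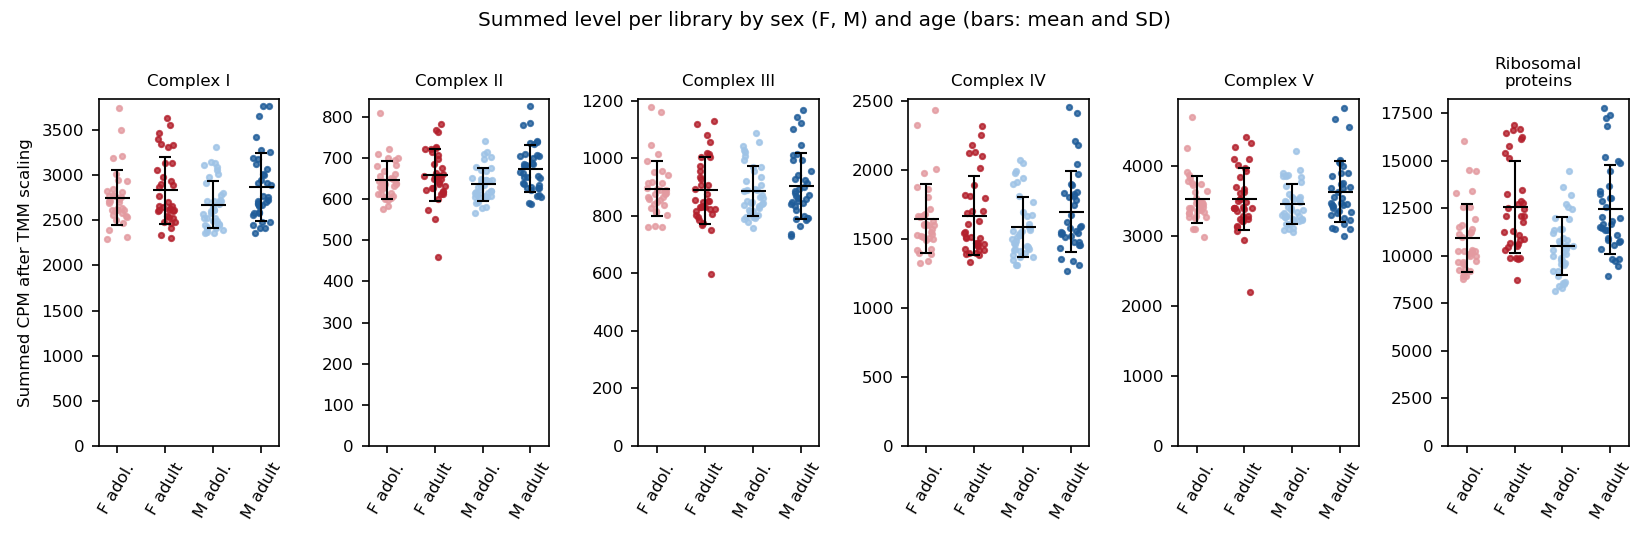
Summed CPM of the tested and untested members of each complex, and of the cytoplasmic ribosomal proteins, in each library by sex and age, with mean and SD as bars. The ranges of the 4 groups overlap in every panel, and the lowest library of complex V is an adult female at 2197 CPM.

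The complexes rose and fell together from library to library. Pearson's r between the summed levels of 2 complexes over all libraries ran from 0.878 (complexes II and IV) to 0.982 (complexes I and IV). Among the 78 members with at least 10 FPKM, the correlation of a member with the sum of the other members after removal of the group means had a median of 0.821. Ndufb8, an accessory subunit of complex I, was highest (0.944) and Ndufs1 lowest (0.390), and 75 of the 78 were over 0.5. The summed levels were correlated nearly as closely with genes of other functions that are short like the members. For all members r was 0.970 with the mitochondrial ribosomal proteins and 0.853 with the cytoplasmic ribosomal proteins. These values describe libraries that share a scaling, and depth and RNA quality were not separated from them. By library number, an unbroken run was high, from an adolescent male FCL VEH library (10630 CPM over all members) to an adult male PF AAE library (10162 CPM). It spanned 9717 to 13045 CPM, against a median of 9215 over all libraries. The cytoplasmic ribosomal proteins spanned 12449 to 17220 CPM in this run, against a median of 11114. The part of this run in the correlations and in the comparisons below was not tested.

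In females, no member differed between adulthood and adolescence past an adjusted p of 0.05 (edgeR quasi-likelihood test, Benjamini-Hochberg adjustment over all genes tested; DESeq2 likewise called 0). Over all genes, 9.02% were called with age in females, 4.81% higher and 4.21% lower in adults. An unadjusted p under 0.05 was reached by 13 of the 89 members, 8 higher and 5 lower in adults, against 22% of all genes. Of the 89 log2 fold changes, 61 were above 0, against 49.5% over all genes, and their median was 0.02. With 2 surrogate variables 3 members rose and 7 fell in adult females, and with offsets for gene length 1 rose and 5 fell. The 3 members with the smallest p in females did not pass the threshold. They were Cox6a2 (log2 fold change of -0.50 ± 0.20, SE, adjusted p = 0.0917), Ndufa12 (0.12 ± 0.05, adjusted p = 0.130) and Ndufb8 (0.14 ± 0.06, adjusted p = 0.143).

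In males, 14 of the 89 members differed between the ages, 13 higher and 1 lower in adults. The 13 that rose were 9 of the 40 tested members of complex I, both the flavoprotein and the iron-sulfur subunit of complex II, 1 of the 17 of complex IV and 1 of the 20 of complex V. Over all genes, 13.1% were called with age in males, 6.95% higher and 6.11% lower, so the 14 of 89 lay near the share over all genes and the 13 that rose lay above it. An unadjusted p under 0.05 was reached by 30 members, 29 of them higher in adults, against 25.4% of all genes. Of the 89 log2 fold changes 76 were above 0, against 47.7% over all genes, with a median of 0.08 against -0.01. The count and its split moved with the processing. With 2 surrogate variables 7 members rose and 6 fell, with offsets for gene length 9 rose and 3 fell, and with only the PF VEH and FCL VEH groups 2 rose and 0 fell.

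Ndufa12 and Ndufb3 were called under all 12 alternatives, including those that left out a library. Ndufa12 encodes an accessory subunit that joins complex I late in its assembly, and lies on chromosome 7 at 30658316 to 30685302. In males its lowest, median and highest levels were 35.8, 45.9 and 63.02 CPM in adolescents and 39.5, 51.4 and 81.2 CPM in adults. In females they were 37.6, 47.6 and 65.8 CPM in adolescents and 42.1, 51.3 and 66.6 CPM in adults. The median was higher in adults of both sexes and the ranges overlapped. The log2 fold change in males was 0.21 ± 0.05 (SE, adjusted p = 0.000516 by edgeR).

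Ndufb3, an accessory subunit in the membrane arm of complex I, lies on chromosome 9 at 67623417 to 67633629. Its lowest, median and highest levels in males were 34.8, 42.4 and 58.6 CPM in adolescents and 39.5, 47.5 and 71.99 CPM in adults. In females the medians were 46.4 and 47.99 CPM, within ranges of 38.3 to 62.96 and 39.8 to 63.3 CPM. The male adults were shifted upward and overlapped the adolescents over most of the range. The log2 fold change in males was 0.19 ± 0.04 (adjusted p = 0.00087 by edgeR).

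Ndufa8, another accessory subunit of complex I, lies on chromosome 3 at 39783479 to 39799507. It ran from 102.5 to 177.3 CPM with a median of 123.9 in adolescent males and from 116.3 to 212.3 CPM with a median of 145.2 in adult males. In females it ran from 107.6 to 182.6 CPM with a median of 131.1 in adolescents and from 88.9 to 211.2 CPM with a median of 135.1 in adults. Its log2 fold change of 0.22 ± 0.05 in males (adjusted p = 0.0015 by edgeR) was the largest among the members that rose. The other complex I members that rose in adult males were Ndufb4 (0.18 ± 0.05, adjusted p = 0.0114), Ndufb8 (0.20 ± 0.06, 0.0134), Ndufa6 (0.18 ± 0.06, 0.0404), Ndufa5 (0.14 ± 0.05, 0.0415), Ndufc2 (0.13 ± 0.05, 0.0477) and Ndufa10 (0.08 ± 0.03, 0.0489). All of these are accessory subunits. Ndufa10 and Ndufc2 were called in only 4 of the 12 alternatives.

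Ndufb8, on chromosome 1 at 253357878 to 253362936, ran from 83.4 to 139.4 CPM with a median of 96.2 in adolescent males and from 87.4 to 178.3 CPM with a median of 110.8 in adult males. Ndufa6, on chromosome 7 at 115746460 to 115750317, ran from 26.8 to 51.4 CPM with a median of 35.6 and from 28.7 to 61.1 CPM with a median of 40.4. For both genes the lowest adult lay close to the lowest adolescent and the highest adult well above the highest adolescent.

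In complex II, Sdha lies on chromosome 1 at 30764553 to 30789523. It ran from 300.4 to 405 CPM with a median of 338 in adolescent males and from 318 to 431 CPM with a median of 358 in adult males. The log2 fold change was 0.09 ± 0.02 (adjusted p = 0.0061 by edgeR), small but with little spread between libraries. In females the medians were 339 and 351 CPM and the log2 fold change was 0.03 ± 0.02 (adjusted p = 0.565). Sdhb had a log2 fold change of 0.10 ± 0.04 in males (adjusted p = 0.0407) and was called in 6 of the 12 alternatives.

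Complex III had 0 of 8 members called in males. The smallest adjusted p was that of Uqcrh, the hinge subunit that helps cytochrome c to dock, at 0.0944 with a log2 fold change of 0.13 ± 0.06, and 1 of the 8 had an unadjusted p under 0.05. In complex IV the member that rose was Cox7a2l, a relative of Cox7a2 known for holding complexes III and IV together in supercomplexes, on chromosome 6 at 16936574 to 16950797. It ran from 81.4 to 128.3 CPM with a median of 98.9 in adolescent males and from 94.4 to 145.3 CPM with a median of 112.9 in adult males (log2 fold change of 0.16 ± 0.04, adjusted p = 0.00464 by edgeR). In complex V, Atp5pf, coupling factor 6 of the stalk, ran from 67.7 to 107.7 CPM with a median of 82.3 and from 72.9 to 147.04 CPM with a median of 91.0. Its log2 fold change was 0.15 ± 0.05 (adjusted p = 0.032), and its start overlaps the neighbouring gene Gabpa. The most abundant members did not pass the threshold in males, with log2 fold changes of 0.10 for Atp5f1b and 0.14 for Cox4i1 (adjusted p = 0.0593 for each).

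**Figure D3:**
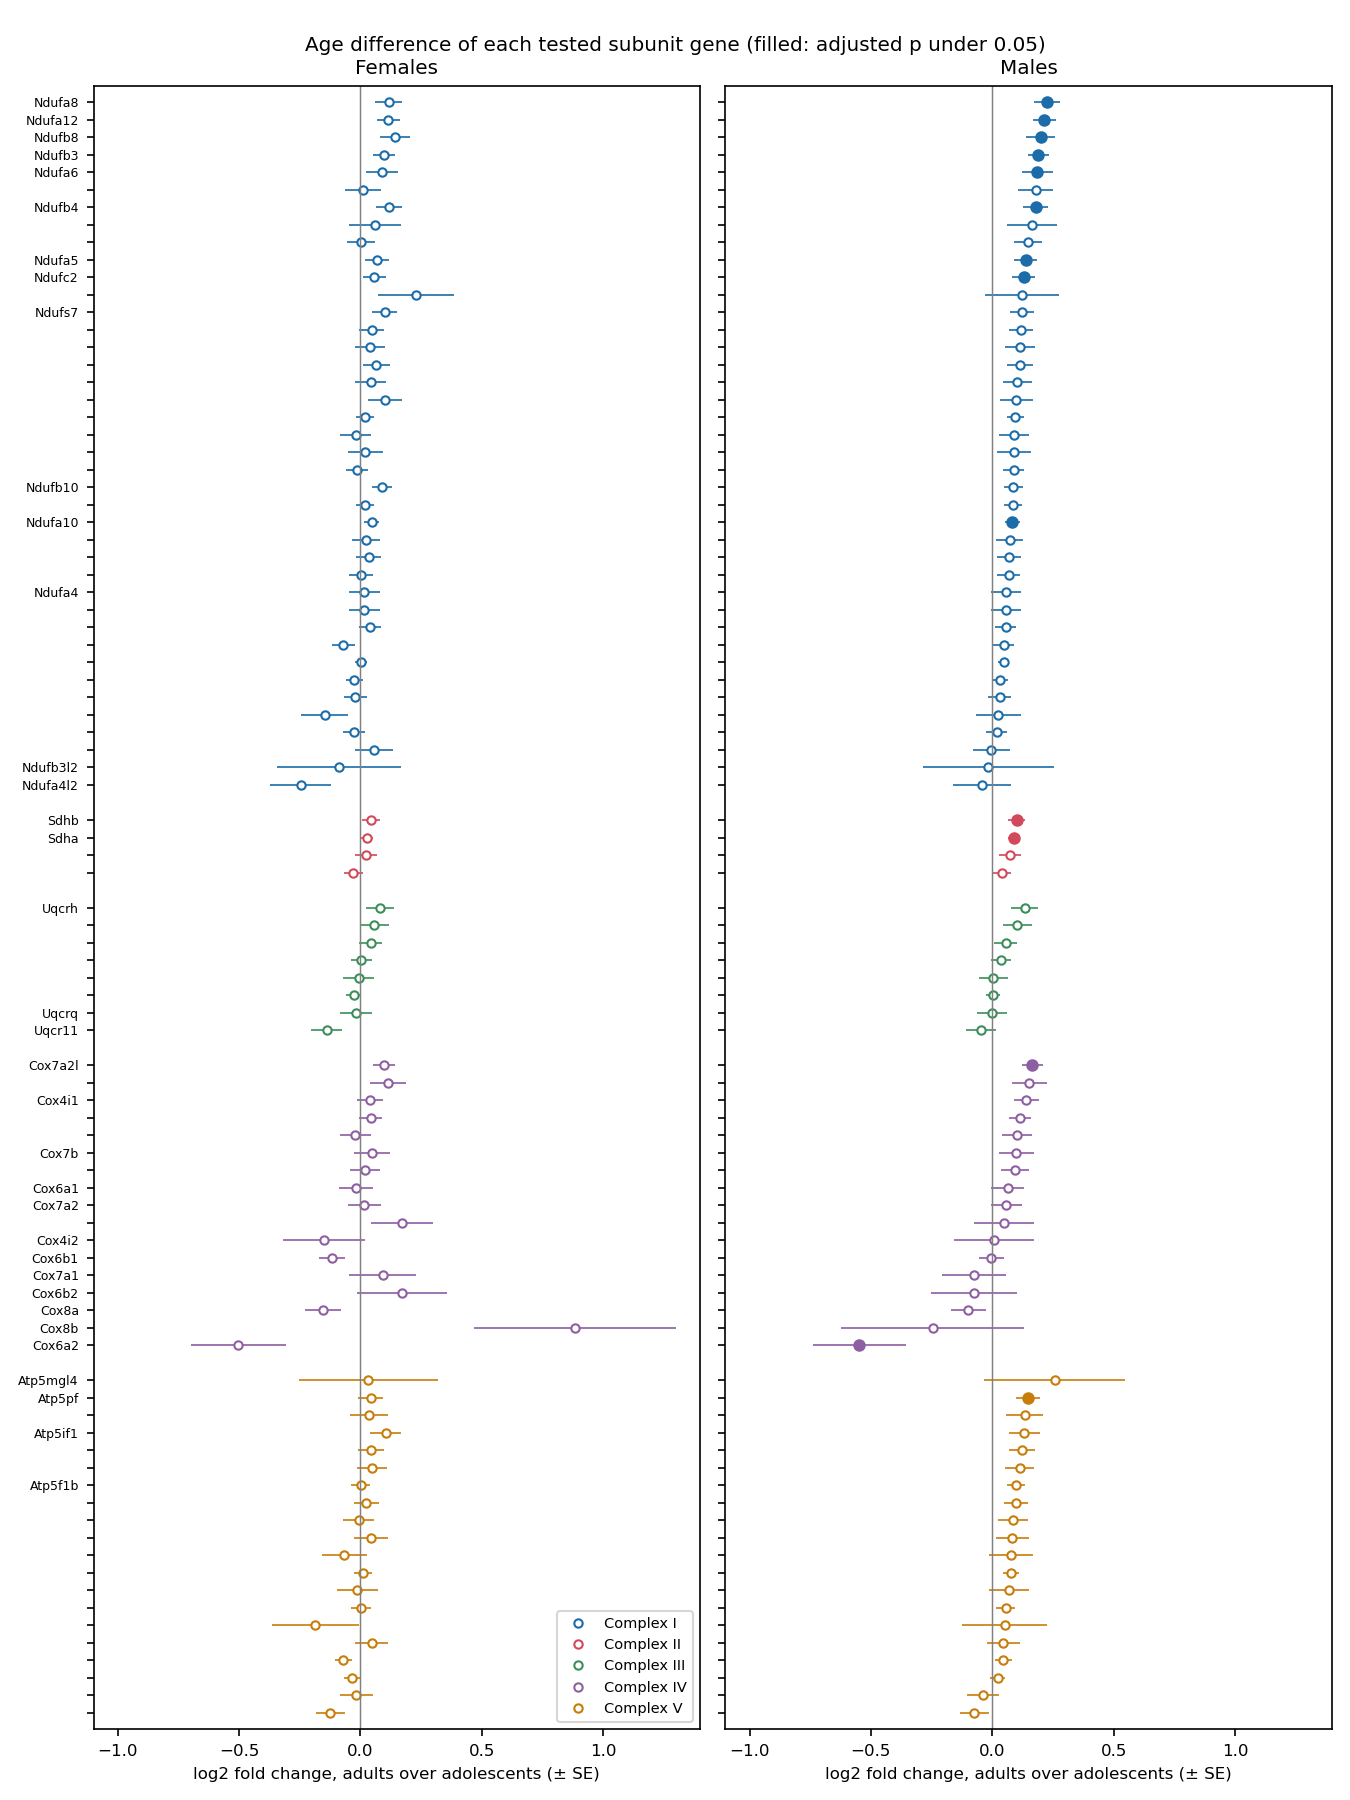
Log2 fold change of adults against adolescents with its SE for each of the 89 tested members, grouped by complex, in females and in males, with the same genes named. Filled points have an adjusted p under 0.05: 0 in females and 14 in males, of which Cox6a2 is the only one below 0.

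The test of the difference in age change between the sexes called 0 members and 0 genes (0% of all genes; edgeR, and DESeq2 also called 0 members). An unadjusted p under 0.05 was reached by 2 of the 89 members, against 5.28% of all genes. They were Atp5f1c, with a male minus female difference of 0.11 (adjusted p = 0.924), and Cox8b, with -1.13 ± 0.57 (adjusted p = 0.943). The next was Atp5f1b, with 0.10 (adjusted p = 0.952). The difference was above 0 for 78 of 89 members, against 49.5% of all genes, and its median was 0.06. With offsets for gene length 61 of 89 were above 0 with a median of 0.03, and with 2 surrogate variables 55 of 89 with a median of 0.01. The counts of 14 in males and 0 in females are therefore not shown to differ between the sexes.

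Over both sexes together, a comparison added after the data had been seen, 17 members rose and 1 fell in adults, and 22.2% of all genes were called (11.6% higher and 10.6% lower). Of the 17 that rose, 11 were of complex I, 2 of complex II, 1 of complex III (Uqcrh, log2 fold change of 0.11 ± 0.04, adjusted p = 0.0397), 1 of complex IV and 2 of complex V. Those not called in males alone were Ndufb10, the core subunit Ndufs7, Uqcrh and Atp5if1, which inhibits ATP synthase. In the authors' deposited table of adolescents against adults, which uses the same libraries, 19 members were called, 18 lower and 1 higher in adolescents (of those with a value, 79 lay below and 24 above 0), where 12.1% of all genes were called. Of these 19, 18 were also among the 18 called here. The authors' deposited table called 0 members for sex or for an exposure.

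Cox6a2 was the 1 member that fell in adult males. It encodes the heart and muscle form of a cytochrome c oxidase subunit, is known in the brain from fast-spiking interneurons, and lies on chromosome 1 at 192218970 to 192221188. Its level was low, with 2.38 ± 1.246 FPKM against 437 ± 89.8 FPKM for its common partner Cox6a1, and 3 libraries had no count. In adolescent males its lowest, median and highest levels were 0.314, 1.28 and 4.20 CPM, and in adult males 0, 0.964 and 1.80 CPM. In adolescent females they were 0.522, 1.44 and 2.71 CPM, and in adult females 0, 0.979 and 3.09 CPM. The adults lay lower in both sexes and the ranges overlapped. The log2 fold change was -0.55 ± 0.19 in males (adjusted p = 0.0409 by edgeR), and the female value of -0.50 ± 0.20 did not pass the threshold. The female value was called with 2 surrogate variables (-0.60, adjusted p = 0.0163) and with offsets for gene length (-0.56, adjusted p = 0.0411), and in none of the other 10 alternatives. The male call was lost without 1 adolescent male PAE VEH library whose Xist went against the label (adjusted p = 0.0646), without the low-count filter and with only the PF VEH and FCL VEH groups. It was kept without all 5 libraries that stood apart, this one among them (-0.53, adjusted p = 0.0308 by edgeR).

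The fast-spiking interneuron list went the other way from Cox6a2. All 12 of its genes had a log2 fold change above 0 in each sex, and 7 rose in males and 2 in females. Nek7 (0.22 ± 0.04, adjusted p = 2.5e-05) and the potassium channel gene Kcnc2 (0.17 ± 0.04, adjusted p = 0.000513) had the smallest p in males. The summed level of the list ran from 742 to 1067 CPM in adolescent males and from 872 to 1195 CPM in adult males, and from 803 to 1031 CPM and from 735 to 1147 CPM in females. Of 8 tested skeletal muscle genes, 1 rose (Tcap) and 1 fell (Myh1) in each sex. The part of these lists in the change of Cox6a2 was not tested.

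The other tissue-restricted isoforms were low, and none passed the threshold with age in either sex. Ndufa4l2, known from low oxygen and from pericytes, lay at 1.95 ± 0.709 FPKM, with log2 fold changes of -0.25 ± 0.13 in females and -0.04 ± 0.12 in males. Cox4i2, known from lung and pericytes, lay at 0.839 ± 0.390 FPKM (-0.15 and 0.01), and Cox6b2, known from testis, at 2.21 ± 1.08 FPKM (0.17 and -0.08). Cox7a1 had log2 fold changes of 0.09 and -0.07. Cox8b, a muscle form with 0 counts in 43 libraries, had 0.89 ± 0.42 in females (adjusted p = 0.186) and -0.25 ± 0.38 in males. Cox7b2, with a count in 64 libraries, and Cox8c, with a count in 2, were too low to be tested.

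The common partners of these isoforms did not pass the threshold either. In females and males, respectively, the log2 fold change was 0.04 and 0.14 for Cox4i1, -0.02 and 0.06 for Cox6a1, -0.12 and -0.00 for Cox6b1, 0.02 and 0.06 for Cox7a2, 0.05 and 0.10 for Cox7b, -0.15 and -0.10 for Cox8a, and 0.02 and 0.06 for Ndufa4. Cox8a, the common form of a small complex IV subunit, and Cox6b1 went below 0 while most members went above. With 2 surrogate variables Cox8a was called lower in adult females (-0.20, adjusted p = 0.000591) and adult males (-0.19, adjusted p = 0.000902), and likewise with offsets for gene length (-0.19, adjusted p = 0.00391 and -0.16, adjusted p = 0.0106). Cox6b1 was called lower in adult females under the same alternatives (-0.12, adjusted p = 0.0118 and -0.14, adjusted p = 0.000248). Its direction in males changed with the setting and has no call. Cox4i1 was called higher in adult males in 3 of the 12 alternatives.

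**Figure D4:**
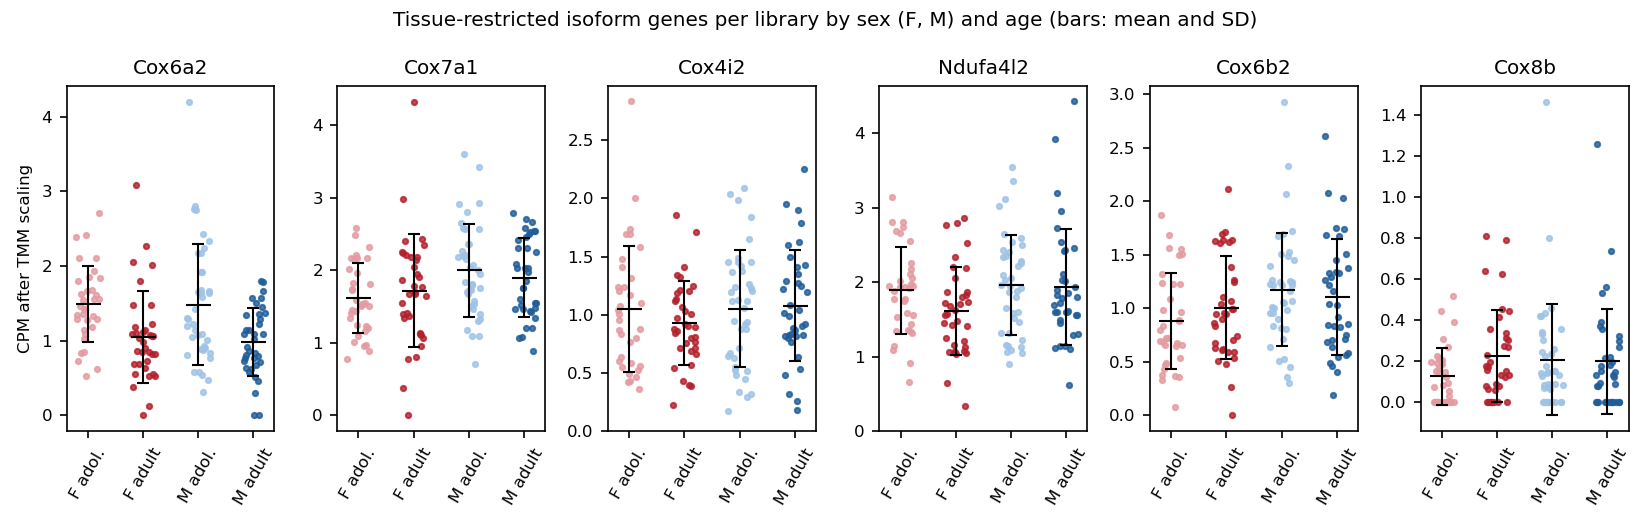
CPM of Cox6a2, Cox7a1, Cox4i2, Ndufa4l2, Cox6b2 and Cox8b in each library by sex and age, with mean and SD as bars. Cox6a2 has medians of 1.44 and 1.28 CPM in adolescent females and males and of 0.979 and 0.964 CPM in adults, and the other isoforms show no call.

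Of 59 genes listed as assembly factors, 14 rose and 0 fell in males, and 4 rose and 2 fell in females. The list also counts Ndufab1, which is a subunit of complex I. The share called was 23.7% in males, against 13.1% of all genes, and 10.2% in females, near the 9.02% of all genes. A difference between the sexes was called for 0 genes. Of 17 genes listed for the assembly of complex I, 5 rose in males. Tmem126a (0.20 ± 0.06, adjusted p = 0.00788) and the acyl carrier subunit Ndufab1 (0.14 ± 0.04, adjusted p = 0.0161) were among them. In females Ecsit rose (0.19 ± 0.05, adjusted p = 0.00516) and Acad9 fell (-0.10 ± 0.03, adjusted p = 0.0156). Sdhaf4, 1 of 4 assembly factors of complex II, rose in males (0.25 ± 0.05, adjusted p = 0.0001). Of 9 factors for complex III, 2 rose in males (Uqcc1 and Uqcc3), and in females Uqcc3 rose (0.24 ± 0.07) and Uqcc4 fell (-0.14 ± 0.04). For complex IV 4 of 24 rose in males, among them Coa5 (0.13 ± 0.03) and Coa3 (0.17 ± 0.04), and 1 rose in females (Coa3). For complex V 2 of 5 rose in males, and 1 of 5 in females. This was Atpaf1, which helps to assemble the catalytic head, with 0.22 ± 0.03 in males (adjusted p = 1.14e-09) and 0.15 ± 0.03 in females (adjusted p = 0.000225).

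Of 16 electron carrier genes 5 rose in males, among them Coq8b and Coq2 of ubiquinone synthesis (0.12 ± 0.03 for each), and 1 rose in females (Etfa, 0.20 ± 0.06). Cyc1 stood at -0.06 ± 0.06 in females and 0.02 ± 0.06 in males. Of 14 genes of the tricarboxylic acid cycle 4 rose in males, among them Suclg1 and Sucla2 (0.11 ± 0.03 and 0.11 ± 0.04), and 1 fell in females (Dlst, -0.08 ± 0.02). Of 15 regulators of mitochondrial biogenesis 1 rose in males (Twnk, 0.15 ± 0.04) and 2 in females (Tfam, 0.11 ± 0.04, and Twnk, 0.11 ± 0.04). Ppargc1a, the coactivator known to drive such genes, had 0.02 ± 0.04 and 0.04 ± 0.04.

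Other short, abundant genes and cell type markers moved with age beside the members. Of the cytoplasmic ribosomal protein genes 65 rose in males, where 100 lay above and 6 below 0, and 46 rose in females, where 97 lay above and 9 below 0, and 0 fell in either sex. Of 74 mitochondrial ribosomal protein genes 11 rose in males and 1 in females. In males 6 of 9 endothelial genes, 6 of 10 oligodendrocyte genes, 3 of 12 mural cell genes, 2 of 10 microglial genes and 8 of 8 red blood cell genes fell. In females 0 endothelial, 1 oligodendrocyte, 0 mural, 0 microglial and 7 red blood cell genes fell. The summed oligodendrocyte markers ran from 3042 to 25669 CPM in adolescent males and from 2143 to 18432 CPM in adult males, and the summed red blood cell markers had medians of 62.4 and 17.9 CPM. Across all genes tested the age change was weakly related to gene length, with Spearman's rho of -0.13 in males and -0.09 in females. The part of these lists and of gene length in the change of the members was not tested beyond the alternatives given above.

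Between the sexes, 0 members were called at either age. Over all genes 0.119% were called in adolescents and 0.0844% in adults, and 7 and 2 members had an unadjusted p under 0.05, against 5.91% and 4.73% of all genes (DESeq2 called 0 members as well). In adolescents the 3 with the smallest p were Cox7a1 (male minus female of 0.32 ± 0.14, adjusted p = 0.752), Ndufa3 (-0.16) and Cox6b2 (0.40). In adults they were Ndufa4l2 (0.26 ± 0.12, adjusted p = 0.980), Ndufc1 (0.09) and Atp5f1c (0.07). In adolescents 73 of 89 members lay lower in males with a median of -0.04, where 50.2% of all genes lay above 0, and in adults 60 of 89 lay higher with a median of 0.02, against 49.8% of all genes. In adolescents 84 cytoplasmic ribosomal protein genes also lay lower in males and 22 higher, while 10 of 10 oligodendrocyte markers lay higher (median of 0.43), with summed levels from 2555 to 21302 CPM in females and from 3042 to 25669 CPM in males. The part of these lists was not tested.

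No member was called for prenatal or adolescent exposure in any of 23 comparisons, 20 of them within a sex and age and 3 over all libraries (edgeR; DESeq2 called 0 as well). Of all genes, 0% were called in each of the 20, 0.0149% for PAE against PF over all libraries, 0.0149% for PAE against FCL and 0.00497% for AAE against VEH. Between 0 and 9 members reached an unadjusted p under 0.05. The smallest adjusted p of any member in these comparisons was 0.480, for Ndufs1 with AAE against VEH over all libraries (-0.04 ± 0.02). For PAE against PF it was 0.634 (Ndufb3l2, 0.47), followed by Cox5a (0.08), and for PAE against FCL 0.790 (Ndufb3l2, 0.63 ± 0.22). Ndufb3l2 is a gene copy with few counts that may share reads with its relatives.

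The members often shared a direction in a comparison without passing any threshold. After alcohol in adolescence, 81 of 86 members lay lower in adolescent females (median log2 fold change of -0.07), where 49.5% of all genes lay above 0. In adolescent males 72 of 86 lay higher (0.03), against 47.8% of all genes. In adult females 64 of 87 lay higher (0.04), against 57.1% of all genes, and in adult males 64 of 87 lay lower (-0.02), where 49.3% of all genes lay above 0. Short genes moved beside the members in several of these comparisons. The Spearman's rho of all genes with length was 0.19 in adolescent females, -0.24 in adolescent males, -0.11 in adult females and -0.10 in adult males. In adult males this sign means higher short genes, while most members lay lower. Of the cytoplasmic ribosomal protein genes, 75 lay below and 26 above 0 in adolescent females, 88 above and 14 below in adolescent males, 95 above and 6 below in adult females, and 84 below and 17 above in adult males. PAE against FCL gave 73 of 86 members higher in adolescent females (0.07), against 50% of all genes, and PAE against PF 67 of 86 (0.05), against 44.9% of all genes, but these comparisons share the PAE libraries. In the first 68 ribosomal protein genes lay above and 33 below 0, and in the second 9 above and 92 below. The part of gene length in these directions was not tested. The members are correlated across libraries, so these counts of shared signs are a description and no test.

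The widest shift was in the interaction of PAE and AAE in adult males, which is the change with alcohol within PAE minus the change within PF. Here 82 of 87 members were above 0, against 52.5% of all genes, with a median of 0.24 against 0.01, and 9 had an unadjusted p under 0.05 (3.17% of all genes). By complex the medians were 0.24 for complex I, 0.18 for complex II, 0.25 for complex III, 0.29 for complex IV and 0.24 for complex V. The 3 with the smallest p were Cox6c (0.60 ± 0.24), Atp5pf (0.45 ± 0.19) and Uqcrb (0.48 ± 0.21), each with an adjusted p of 0.995. The summed level of all members in the 4 PAE VEH libraries was 8837 (the library with Xist at 95.9 CPM), 9014, 9349 and 10412 CPM. It had a median of 9885 in PAE AAE (9012 to 12662), 9382 in PF VEH (8534 to 13045) and 9221 in PF AAE (8396 to 10707), and the 4 groups overlapped. The run of high libraries described above was spread unevenly over these groups. It held the PF VEH libraries at 10000, 10644 and 13045 CPM and the PF AAE libraries at 10162 and 10707 CPM. In PAE AAE it held the library at 11111 CPM but not that at 12662 CPM, and it held no PAE VEH library. Its part in the shift was not tested. With offsets for gene length 61 of 87 were above 0 with a median of 0.04, and with 2 surrogate variables 66 of 87 with a median of 0.10. Across all genes tested the same interaction had a Spearman's rho with gene length of -0.25, and 97 cytoplasmic ribosomal protein genes were above 0 and 4 below. Oligodendrocyte markers moved in the same direction, with 10 of 10 above 0 (median of 0.54), and so did the red blood cell markers, with 6 of 6 tested above 0 (median of 2.61). The summed oligodendrocyte markers ran from 4931 to 6301 CPM in PAE VEH, 4602 to 11388 in PAE AAE, 2973 to 18432 in PF VEH and 3492 to 9555 in PF AAE. The summed red blood cell markers ran from 4.98 to 26.2 CPM, 18.05 to 354.7, 5.32 to 98.5 and 4.19 to 69.2 CPM in the same order, with 1 of their 8 genes at 0 throughout PAE VEH and 0 in the other groups. For both lists the ranges of the 4 groups overlapped, and their part in the shift of the members was not tested.

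The same interaction gave the other direction in the other sex and age groups. In adolescent females 19 of 86 members were above 0 (48.1% of all genes) with a median of -0.11. In adult females 21 of 87 were above 0 (45.4% of all genes) with a median of -0.14. In adolescent males 13 of 86 were above 0 (50.6% of all genes) with a median of -0.09. In adolescent and adult females the Spearman's rho of all genes with length was 0.23 and 0.22, also opposite in sign to that of adult males. Cell type markers moved here too. Oligodendrocyte markers were above 0 for 0 of 10 in adolescent females (median of -0.53), 0 of 10 in adult females (-0.46) and 1 of 10 in adolescent males (-0.18). Microglial markers were above 0 for 1 of 10 (-0.49), 0 of 10 (-0.77) and 0 of 10 (-0.27). In adult females the summed microglial markers ran from 162.3 to 323 CPM in PAE VEH, 156.03 to 257 in PAE AAE, 93.4 to 283 in PF VEH and 157.1 to 307 in PF AAE, with 0 of the 10 genes at 0 in any of these groups. In adult males their medians were 234 CPM in PAE VEH, 186 in PAE AAE, 231 in PF VEH and 202 in PF AAE, with overlapping ranges. The medians there fell more with alcohol within PAE, while the members lay above 0 in this interaction. Their part in the shift of the members was not tested. None of these interactions had a called member, and their difference between the sexes and ages was not tested.

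**Figure D5:**
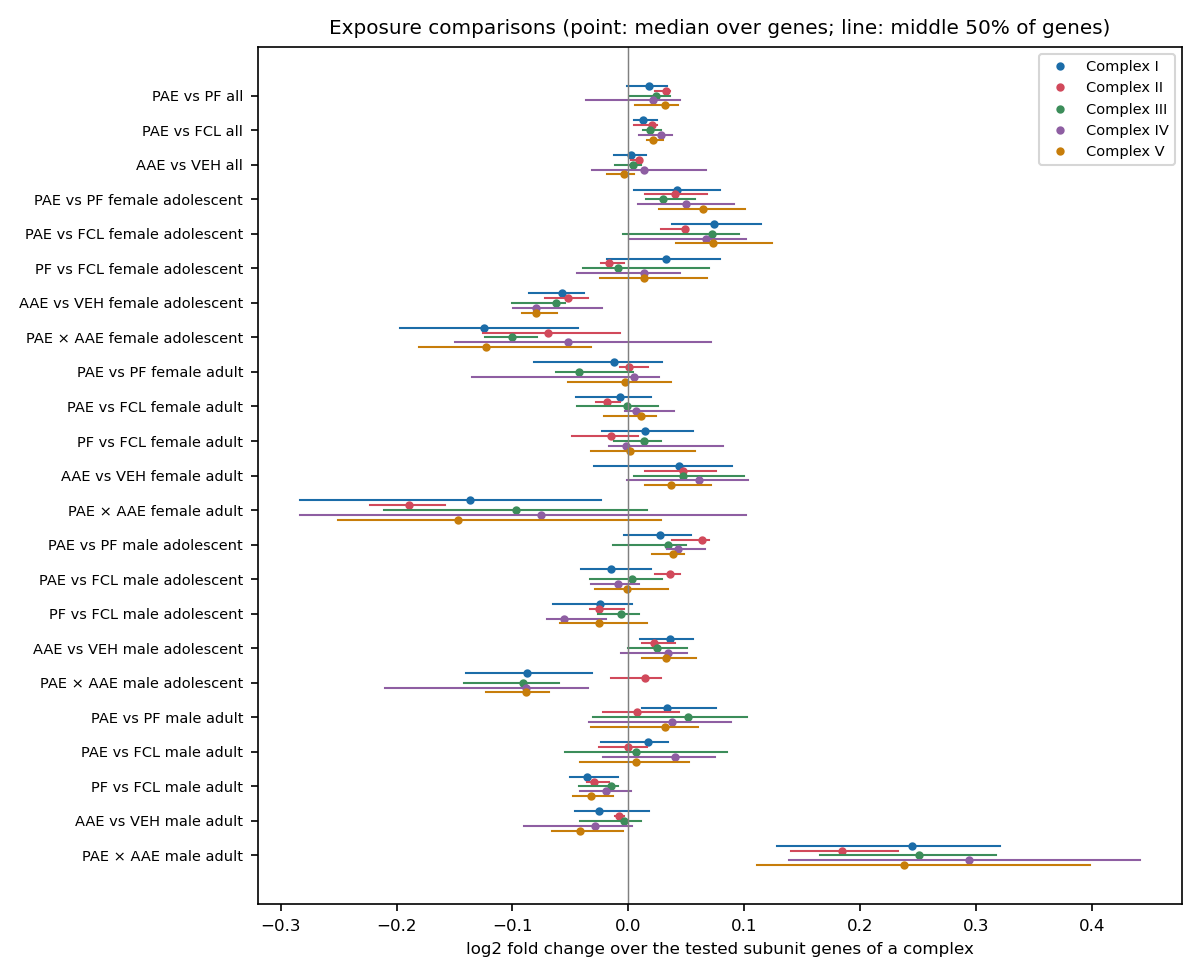
Median and middle 50% of the members' log2 fold changes per complex in the 23 exposure comparisons. The interaction of PAE and AAE in adult males lies highest, with complex medians from 0.18 to 0.29, and the same interaction lies below 0 in the other sex and age groups, except for complex II in adolescent males (0.01). No member is called in any comparison.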

How the data were processed

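The authors deposited 1 table with whole-number counts and FPKM for each library, per the file headers, together with log2 fold changes and p-values of their own comparisons. Its group means were not used. The submitters' processing notes name fastp and HISAT2 2.0.5, and name no counter or genome build. All members have the coordinates of RefSeq's GRCr8, from which the promoters were read. Members and lists were chosen with earlier results of these data known.

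The test on counts was that of edgeR 4.0.16 in R 4.3.3 (filterByExpr with a minimum count of 10, TMM, robust glmQLFit, glmQLFTest, Benjamini-Hochberg adjustment over all genes tested). Called means an adjusted p under 0.05, and the SE is the absolute log2 fold change over the square root of F. Age and sex were contrasts in 1 fit of all libraries with 24 groups, and exposures in 4 fits, 1 per sex and age. Alternatives were DESeq2 1.42.0, RLE scaling, no filter, 2 surrogate variables (sva 3.50.0), offsets against gene length, fewer groups and libraries left out. The text names every called member, otherwise a choice of the 3 with the smallest p, the tissue-restricted isoforms with their partners, and the highest and lowest member of each complex. Further genes of interest (Ppargc1a, Cyc1 and the most abundant members) were named after their values were seen. The pipeline was tested on simulated data. No 2 libraries of the same group held identical counts (366 pairs). Results of some members are not reported here by name.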

Additional observations from a re-analysis of the deposited data

Results flagged for a closer look

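For the sum over all members and over each complex, every group of 4 to 7 libraries was examined. In 23 cases the highest or lowest library lay apart from the rest by Dixon's test at its 95% limit, which chance passes in about 1 in 20 groups. The complexes of a library are not independent. Several of the libraries named here lay in the run of high libraries described above. They were those at 11422 and 12865 CPM over all members, that at 702 CPM in complex II and those high in complex IV alone. Over all members the libraries apart were an adult female FCL AAE library at 11422 CPM, an adolescent female PAE VEH library at 12865 CPM and an adolescent male PF AAE library at 11326 CPM, all high, and the adult female PF VEH library with the fewest genes detected, low at 6981 CPM. The first of these was also high in complex I (3395 CPM), complex III (1081 CPM) and complex IV (2127 CPM). The second was high in complex I (3743 CPM), complex III (1178 CPM) and complex IV (2438 CPM). The adolescent male PF AAE library was high in complex I (3308 CPM), complex III (1088 CPM), complex IV (2071 CPM) and complex V (4211 CPM). The adult female PF VEH library was low in complex II (461 CPM), complex III (596 CPM) and complex V (2197 CPM). An adolescent male PF VEH library was apart in complex II (702 CPM) and complex III (1030 CPM). In complex IV alone an adolescent female PF AAE library (2012 CPM), an adolescent female PF VEH library (2329 CPM) and an adolescent male FCL AAE library (2054 CPM) were high, and in complex V an adult male FCL AAE library (4667 CPM) was.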

How the results depend on the processing

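Of 315 values and counts under an alternative, 310 moved by less than 1 SD or 1.5 times. In females the count of members called with age was 0, but 10 with 2 surrogate variables and 6 with offsets for gene length. In males it was 14, but 7 without the low-count filter and 2 with only the PF VEH and FCL VEH groups, and between 10 and 19 when single libraries were left out; it was 11 with RLE scaling, 13 with surrogate variables (8 of the same genes), 12 with length offsets (7 of the same genes), 12 with DESeq2 and 20 without the 5 libraries that stood apart (14 of the same genes). The YY1 letters were in 10 promoters, but in 1 with only the bases before the start. This follows from the window, as 8 sites lie after the start and that of Uqcrc1 runs across it. The cause of the changes in the counts of called members was not tested. For single genes 541 results kept direction and side of the threshold, 15 newly passed it, 44 no longer passed it and 22 changed sign.

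The changes of sign were all in genes without a call. In females with only PF VEH and FCL VEH they were Cox4i1 (-0.0033), Cox4i2 (0.16), Cox6b2 (-0.27) and Cox7a2 (-0.019). In males they were Cox4i2 (-0.26), Cox6b1 (0.075), Cox6b2 (0.071), Cox7a1 (0.13) and Cox8a (0.0017). Without the 5 libraries they were Cox6a1 (0.0064) and Ndufa4 (-0.024) in females and Cox6b1 (0.0042) in males. With single libraries left out Cox6a1 ran from -0.021 to 0.0089 and Ndufa4 from -0.023 to 0.021 in females (the changed sign without 1 adult female PF VEH library), and Cox6b1 from -0.0093 to 0.0091 in males (without 1 adolescent male PAE VEH library). In males with offsets for length they were Cox4i2 (-0.021), Cox6a1 (-0.0088) and Ndufa4 (-0.0044), with surrogate variables Cox6a1 (-0.040) and Cox7a2 (-0.0087), with RLE scaling Cox4i2 (-0.00060) and with DESeq2 Cox4i2 (-0.0015). Cox8b could not be tested with only PF VEH and FCL VEH. No paired analysis was possible because the labels give each library a number of its own and name no litter or pair. Depth limits the untested members and the isoforms near 1 CPM.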
